A study of Arabidopsis with 12 samples.

Results

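The genes described here are 10 *SWEET* sugar transporter genes of Arabidopsis, *SWEET1*, *SWEET2*, *SWEET4* and *SWEET11* to *SWEET17*. They were taken by gene identifier from a deposited table of 33559 genes, and the family has 17 genes in all. RNA came from whole seedlings that were 14 days old, in 4 groups of 3 libraries each. The groups were *aph-1* with abscisic acid (ABA), the wild type with ABA, *aph-1* without treatment and the wild type without treatment. ABA, a stress hormone of drought and seed development, was given at 50 μM for 6 h. All seedlings grew on 1/2 MS medium with 1% sucrose, itself a cargo of several SWEET proteins. The wild type was Col-0. *aph-1* is a single T-DNA insertion line (Salk_120974) with the insertion in the promoter of *APH* (AT3G44620), which encodes a low molecular weight protein tyrosine phosphatase. The study asked whether *APH* takes part in ABA-responsive gene expression.

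SWEET proteins are sugar uniporters. They sit in the plasma membrane or the membrane of the vacuole and let sugars pass down their concentration gradient, without the proton coupling of the SUC and STP transporters. In leaves, SWEET11 and SWEET12 release sucrose from phloem parenchyma cells so that SUC2 can load it into the phloem. Clade I holds SWEET1 and SWEET2, clade II holds SWEET4, clade III holds the sucrose transporters SWEET11 to SWEET15, and clade IV holds the vacuolar transporters SWEET16 and SWEET17.

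Each value below is taken as FPKM, a read count divided by transcript length and library size. The unit was inferred from the name and values of the table the authors deposited. There is 1 FPKM value per gene and group, so the spread between the 3 libraries is unknown and no SD or p-value can be given. A gene is called higher or lower here when its FPKM differs at least 2-fold. Only genes that reach 1 FPKM in either of the groups compared and lie above 0 in both were tested in this way. Such a call is a statement about size and not a test. The depth of the libraries is not known. Over all genes the median log2 ratio lay between -0.05 and -0.003 in all 4 comparisons. *APH* was at 86.9 FPKM in *aph-1* and 99.0 FPKM in the wild type with ABA, and at 83.6 FPKM in *aph-1* and 95.9 FPKM in the wild type without ABA, so its level for the whole gene does not separate the genotypes 2-fold. The paper reports that *aph-1* makes a transcript in which T-DNA sequence is joined to *APH*. It proposes that the product may be truncated or without function. Shoot and root were both represented. *RBCS1A*, a leaf Rubisco gene, was at 3952 FPKM or more and *PYK10*, a root glucosidase gene, at 1165 FPKM or more in every group, while the seed storage genes *CRA1* and *SESA1* stayed at 0.208 FPKM or less.

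Most of the 10 genes had levels at least 2-fold apart with and without ABA. After ABA, *SWEET15* and *SWEET4* were the members furthest above their untreated levels, and *SWEET1*, *SWEET2* and *SWEET13* were higher as well. *SWEET16* was the member called lower. *SWEET11*, *SWEET12* and *SWEET17* were within 2-fold of their untreated levels in both genotypes. In *aph-1*, 6 of the 10 members were called higher after ABA, where 12.0% of 19979 genes were, and 1 was called lower, where 11.1% of genes were. In the wild type, 5 of the 10 were called higher, where 11.8% of 20028 genes were, and 1 was called lower, where 13.2% of genes were. The median log2 ratio of ABA to untreated over the 10 members was 1.48 in *aph-1* and 1.14 in the wild type, against medians of -0.02 and -0.003 over all genes tested in *aph-1* and in the wild type. Leaf markers also moved with ABA, with *RBCS1A* called lower in both genotypes and *CAB3* in the wild type. *RBCS1A* was at 6025 FPKM in *aph-1* and 3952 FPKM in the wild type with ABA, against 12404 FPKM in *aph-1* and 9613 FPKM in the wild type without ABA. *CAB3*, for a chlorophyll-binding protein, was at 744 FPKM in *aph-1* and 481 FPKM in the wild type with ABA, against 1284 FPKM in *aph-1* and 1013 FPKM in the wild type without ABA. The root and phloem markers (*PYK10*, *EXPA7*, *SUC2* and *APL*) stayed within 2-fold, but *PYK10* and *SUC2* only just so in the wild type. Their log2 ratios of ABA to untreated were -0.97 and 0.96 there, and -0.73 and 0.77 in *aph-1*. *EXPA7* and *APL* lay closer to no change in both genotypes. The part of the changes of all these markers in the *SWEET* levels was not tested. In whole seedlings fewer cells of a type and less RNA per cell cannot be told apart.

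**Figure D1:**
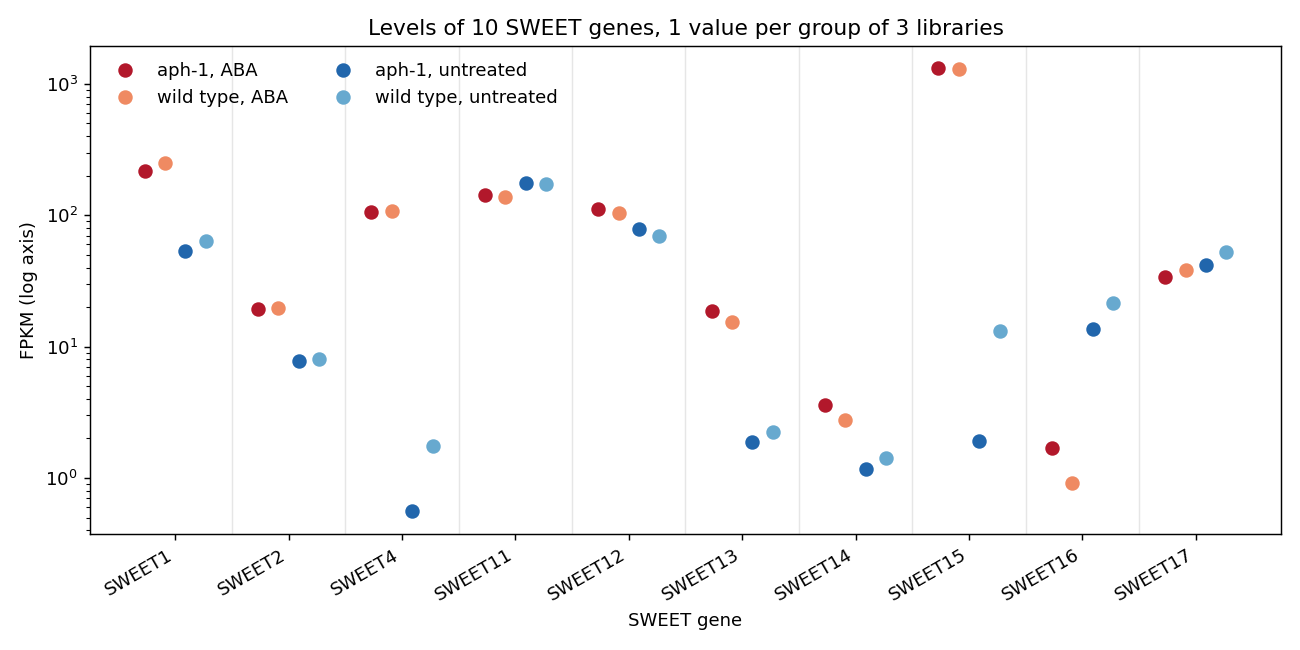
FPKM (log axis) of each of the 10 *SWEET* genes, with 1 point per group: *aph-1* with ABA, wild type with ABA, *aph-1* untreated and wild type untreated. *SWEET15* spans the widest range, with 1319 and 1309 FPKM with ABA in *aph-1* and the wild type against 1.90 and 13.2 FPKM without, and *SWEET16* alone has both points with ABA far below both untreated points.

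*SWEET15* (AT5G13170) encodes a sucrose transporter that is also known as senescence-associated gene SAG29. It was at 1319 FPKM in *aph-1* and 1309 FPKM in the wild type with ABA, against 1.90 FPKM in *aph-1* and 13.2 FPKM in the wild type without ABA. The ABA-treated groups were thus at almost the same level, while the untreated groups were not. The log2 ratio of ABA to untreated was 9.44 in *aph-1* and 6.63 in the wild type. By this ratio *SWEET15* ranked 25 from the top of 19979 genes in *aph-1* and 34 from the top of 20028 genes in the wild type. With ABA its level was at or above that of 99.7% of the genes listed above 0 in each genotype.

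*SWEET4* (AT3G28007) encodes a hexose transporter of the plasma membrane. It was at 106 FPKM in *aph-1* and 108 FPKM in the wild type with ABA, against 0.557 FPKM in *aph-1* and 1.75 FPKM in the wild type without ABA. As for *SWEET15*, the genotypes were close with ABA and apart without it. The log2 ratio of ABA to untreated was 7.57 in *aph-1* and 5.94 in the wild type. *SWEET4* ranked 61 from the top of the genes tested in *aph-1* and 78 from the top in the wild type.

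*SWEET13* (AT5G50800) and *SWEET14* (AT4G25010) encode close relatives that carry sucrose and have also been found to transport gibberellins. *SWEET13* was at 18.8 FPKM in *aph-1* and 15.5 FPKM in the wild type with ABA, against 1.86 FPKM in *aph-1* and 2.23 FPKM in the wild type without ABA. Its log2 ratio of ABA to untreated was 3.34 in *aph-1* and 2.80 in the wild type, a 10.1-fold and a 6.95-fold higher level. *SWEET14* was at 3.62 FPKM in *aph-1* and 2.76 FPKM in the wild type with ABA, against 1.16 FPKM in *aph-1* and 1.41 FPKM in the wild type without ABA. It was called higher in *aph-1*, at a log2 ratio of 1.64, and lay just under the 2-fold threshold in the wild type, at 0.97. The levels of this pair drew apart with ABA. *SWEET13* was 5.20-fold above *SWEET14* in *aph-1* and 5.62-fold above it in the wild type with ABA, against 1.60-fold in *aph-1* and 1.58-fold in the wild type without ABA. The sources used here do not say how reads shared by such related genes were counted.

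*SWEET1* (AT1G21460), for a glucose uniporter of the plasma membrane, was at 218 FPKM in *aph-1* and 249 FPKM in the wild type with ABA, against 53.7 FPKM in *aph-1* and 64.2 FPKM in the wild type without ABA. The 4.05-fold higher level in *aph-1* and the 3.88-fold higher level in the wild type made it the second most abundant member after *SWEET15* in the ABA-treated groups. *SWEET2* (AT3G14770), for a glucose transporter of the vacuolar membrane that is prominent in roots, was at 19.4 FPKM in *aph-1* and 19.7 FPKM in the wild type with ABA, against 7.81 FPKM in *aph-1* and 7.99 FPKM in the wild type without ABA. The genotypes were at nearly the same level in either condition, and the log2 ratio of ABA to untreated was 1.31 in each.

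**Figure D2:**
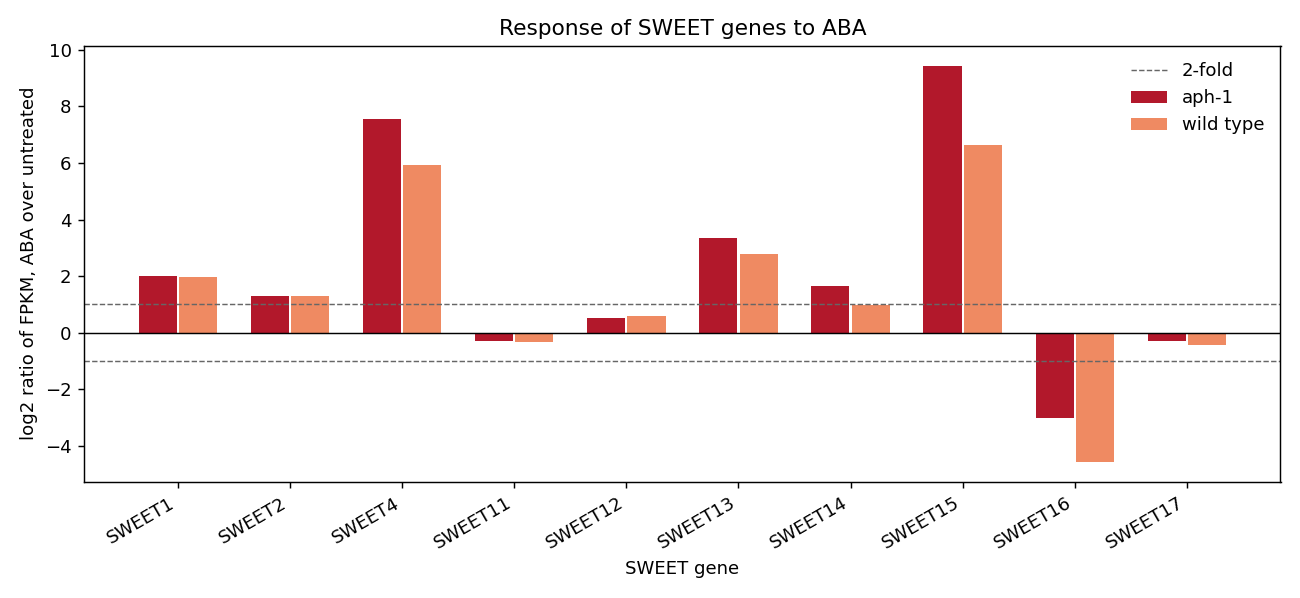
Log2 ratio of FPKM, ABA over untreated, for each *SWEET* gene, with *aph-1* and the wild type side by side and dashed lines at 2-fold. Bars of *SWEET15* reach 9.44 in *aph-1* and 6.63 in the wild type, those of *SWEET4* 7.57 and 5.94, and those of *SWEET16* go down to -3.01 and -4.56.

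The sucrose efflux genes of phloem loading stayed within 2-fold. *SWEET11* (AT3G48740) was at 143 FPKM in *aph-1* and 137 FPKM in the wild type with ABA, against 176 FPKM in *aph-1* and 172 FPKM in the wild type without ABA. *SWEET12* (AT5G23660), which acts redundantly with it in sucrose efflux, was at 111 FPKM in *aph-1* and 104 FPKM in the wild type with ABA, against 78.2 FPKM in *aph-1* and 69.9 FPKM in the wild type without ABA. The log2 ratios of ABA to untreated had opposite signs in this pair, at -0.29 in *aph-1* and -0.34 in the wild type for *SWEET11* and at 0.50 in *aph-1* and 0.57 in the wild type for *SWEET12*. None of these reached 2-fold. *SWEET11* was 1.29-fold above *SWEET12* in *aph-1* and 1.32-fold above it in the wild type with ABA, against 2.25-fold in *aph-1* and 2.47-fold in the wild type without ABA.

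The vacuolar pair also diverged. *SWEET16* (AT3G16690), for a vacuolar transporter of glucose, fructose and sucrose, was at 1.69 FPKM in *aph-1* and 0.911 FPKM in the wild type with ABA, against 13.5 FPKM in *aph-1* and 21.5 FPKM in the wild type without ABA. Its level after ABA was 8.03-fold lower in *aph-1* and 23.7-fold lower in the wild type. In the wild type, *SWEET16* ranked 68 from the lowest log2 ratio of 20028 genes, and in *aph-1* 233 from the lowest of 19979. *SWEET17* (AT4G15920), for a fructose transporter of the vacuolar membrane, was at 33.8 FPKM in *aph-1* and 38.5 FPKM in the wild type with ABA, against 41.5 FPKM in *aph-1* and 52.6 FPKM in the wild type without ABA. Its log2 ratio of ABA to untreated was -0.30 in *aph-1* and -0.45 in the wild type, within 2-fold. *SWEET17* was therefore 20.1-fold above *SWEET16* in *aph-1* and 42.2-fold above it in the wild type with ABA, against 3.07-fold in *aph-1* and 2.44-fold in the wild type without ABA.

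The make-up of the family's transcripts shifted with these changes. Levels of different members are compared here on the premise that the values are FPKM, which is scaled for length, and the shares below rest on that inferred unit. The FPKM values of the 10 members summed to 1974 in *aph-1* and 1984 in the wild type with ABA, against 376 in *aph-1* and 407 in the wild type without ABA. *SWEET15* made up 66.8% of that sum in *aph-1* and 66.0% in the wild type with ABA, against 0.506% in *aph-1* and 3.24% in the wild type without ABA. Without ABA, *SWEET11* was the most abundant member, with 46.7% of the sum in *aph-1* and 42.3% in the wild type. The order of the untreated levels was *SWEET11*, *SWEET12*, *SWEET1*, *SWEET17* and *SWEET16* in both genotypes, with the remaining members below 13.2 FPKM or at it. The order of the ABA-treated levels began with *SWEET15*, *SWEET1* and *SWEET11* in both genotypes and ended with *SWEET14* and *SWEET16*. *SWEET4* and *SWEET12* exchanged places between the genotypes with ABA, at 106 and 111 FPKM in *aph-1* and 108 and 104 FPKM in the wild type. Without a spread between libraries, neighbours in these orders cannot be said to differ. With *SWEET15* left out, the other 9 members summed to 1.75-fold more with ABA than without in *aph-1* and 1.71-fold more in the wild type, against 5.25-fold and 4.87-fold for all 10 in *aph-1* and in the wild type.

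**Figure D3:**
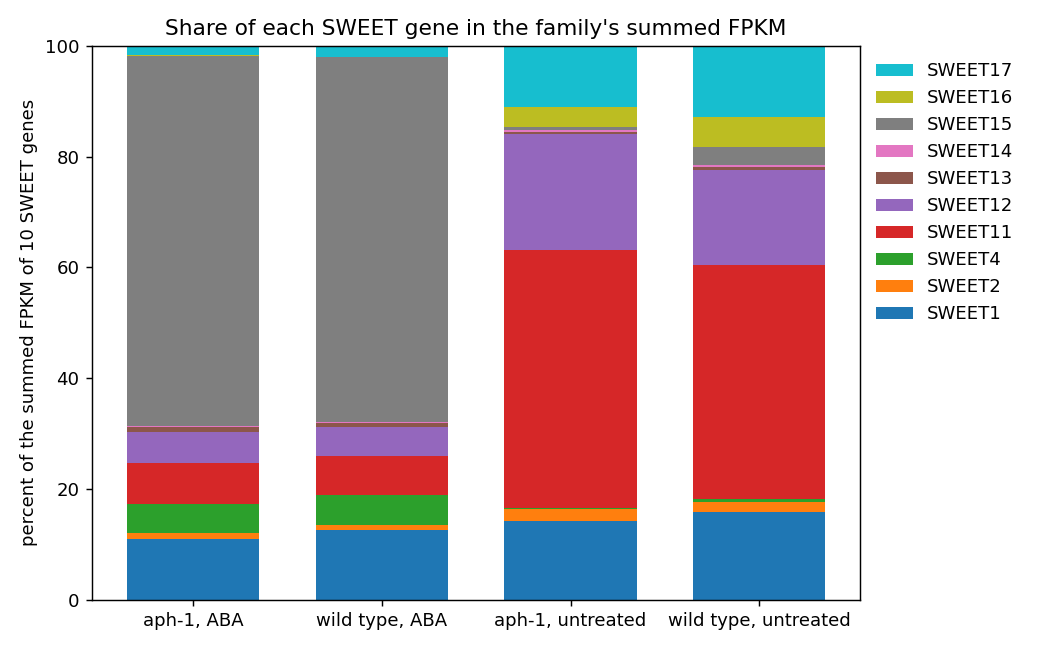
Percent of the summed FPKM of the 10 *SWEET* genes that each gene contributes, in 1 stacked bar per group. *SWEET15* fills 66.8% and 66.0% of the bars of ABA-treated *aph-1* and wild type, and *SWEET11* fills 46.7% and 42.3% of the bars of untreated *aph-1* and wild type.

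The genotypes differed little in most members. Without ABA, *SWEET15* and *SWEET4* were called lower in *aph-1* and no member was called higher, where 0.835% of 19752 genes were called lower and 0.167% higher. With ABA, no member was called in either direction, where 0.248% of 19374 genes were called lower and 0.387% higher. Without ABA, *SWEET15* was 6.93-fold lower in *aph-1*, at a log2 ratio of -2.79, and ranked 24 from the lowest ratio. *SWEET4* was 3.15-fold lower, at -1.65, and ranked 62 from the lowest. It was tested there only through the wild type, as *aph-1* lay under 1 FPKM. The other 8 members lay between -0.67 for *SWEET16* and 0.16 for *SWEET12*. Between the genotypes, the members' median log2 ratio (*aph-1* over wild type) stood at 0.04 with ABA and -0.27 without it, against -0.01 and -0.05 over all genes tested with and without ABA. The untreated wild type stands in both this comparison and the ABA response of the wild type, so the values of these are not independent of each other. The leaf markers *RBCS1A* and *CAB3* had genotype log2 ratios of 0.61 and 0.63 with ABA, and 0.37 and 0.34 without. Root and phloem markers lay between -0.20 for *PYK10* and 0.49 for *SUC2*, both without ABA. The part of these marker differences in the *SWEET* ratios was not tested.

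The genotype ratio of *SWEET16* had opposite signs with and without ABA. It stood at 1.69 FPKM in *aph-1* and 0.911 FPKM in the wild type with ABA, a log2 ratio of 0.89, and at -0.67 without ABA. Neither passed 2-fold. With ABA the ratio of *SWEET16* ranked 99 from the top of 19374 genes. It was tested there only through *aph-1*, as the wild type lay under 1 FPKM. With 1 FPKM added the ratio was 0.49. The ratios of *SWEET13* and *SWEET14* were also positive with ABA, at 0.28 and 0.39, and negative without, at -0.26 and -0.28, as was that of *SWEET15*, at 0.01 with ABA and -2.79 without. *SWEET17* and *SWEET1* had negative ratios in both conditions, at -0.19 each with ABA and at -0.34 and -0.26 without. None of these differences can be set against the spread between libraries.

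**Figure D4:**
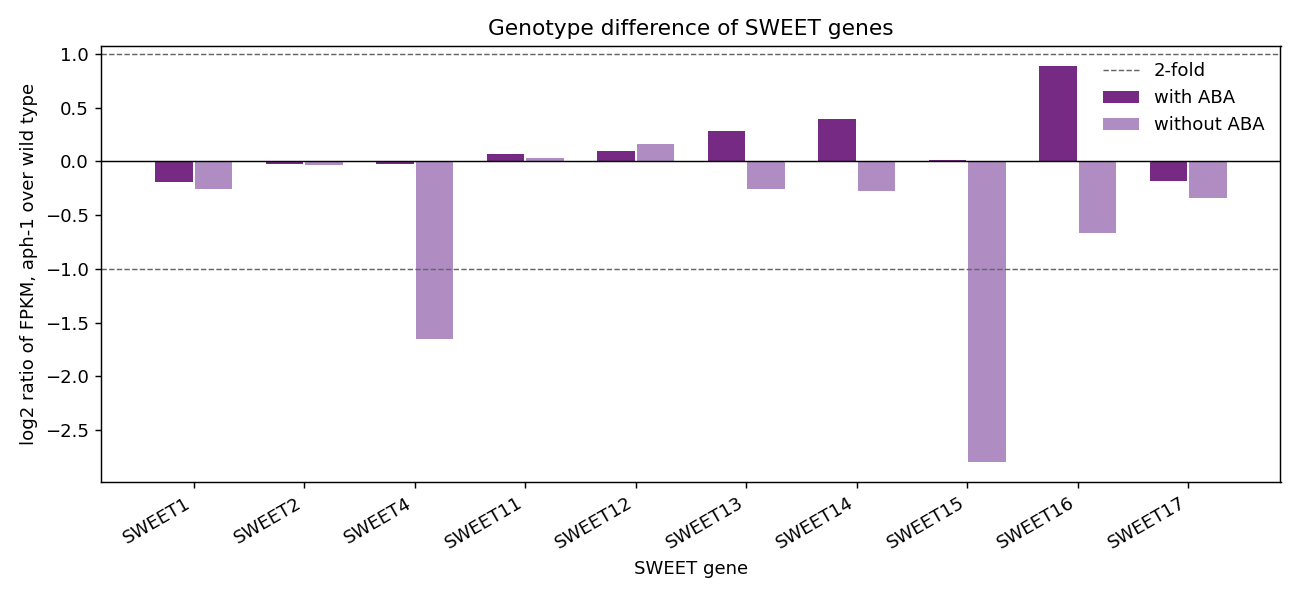
Log2 ratio of FPKM, *aph-1* over wild type, for each *SWEET* gene, with ABA and without ABA side by side and dashed lines at 2-fold. Without ABA *SWEET15* lies at -2.79 and *SWEET4* at -1.65, both past the lower line, whereas with ABA all 10 genes lie between -0.19 and 0.89.

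The size of the ABA response followed from these values. The log2 ratio of ABA to untreated in *aph-1* exceeded that of the wild type by at least 1 for *SWEET15*, *SWEET4* and *SWEET16*, with differences of 2.80, 1.63 and 1.56. Across 19806 genes, 1.60% showed such a difference, and 0.303% one of at least 1 in the other direction, where no member stood. The differences of *SWEET14* and *SWEET13* were 0.67 and 0.54, and those of the remaining 5 members lay between -0.07 and 0.15. For *SWEET15* and *SWEET4* the difference came from the untreated groups, since the genotypes were at 0.01 and -0.03 on the log2 scale with ABA. For *SWEET16* both conditions contributed.

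The untreated levels of *SWEET15* and *SWEET4* were small fractions of the levels with ABA. Untreated *SWEET15* was at 0.144% of its ABA level in *aph-1* and 1.01% in the wild type, and untreated *SWEET4* at 0.526% in *aph-1* and 1.63% in the wild type. Of the 1992 genes that reached 100 FPKM with ABA in each genotype, 36 had an untreated level under 0.5% of their ABA level in *aph-1* and 0 in the wild type, where the lowest was 0.579%. In *aph-1* the lowest was 0.0439%. The ABA marker gene *RAB18* (AT5G66400) was at 5766 FPKM in *aph-1* and 7335 FPKM in the wild type with ABA, against 5.67 FPKM in *aph-1* and 56.6 FPKM in the wild type without ABA. The part of this lower limit in the difference of *SWEET15* and *SWEET4* between the untreated genotypes was not tested. When 0.5% of the ABA level of the same genotype was taken off each untreated value, *SWEET15* reached 0 in *aph-1* and 6.64 FPKM in the wild type, so no fold could be given, and *SWEET4* was left with 0.0279 FPKM in *aph-1* and 1.21 FPKM in the wild type and stayed called. With 1% taken off, *SWEET4* also reached 0 in *aph-1*, at 0.675 FPKM in the wild type, so neither gene had a fold to call. *SWEET15* was then left with 0.0958 FPKM in the wild type. The same percent was taken off in both genotypes, although 36 genes in *aph-1* lay under 0.5% and 0 in the wild type. The subtraction is therefore no test of the part of this limit.

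Genes with a pattern like that of *SWEET15* over the 4 groups were sought among 20136 genes, by the distance between log2 values centred on each gene's mean. The 5 closest, all within a distance of 0.37, were *SOM* (AT1G03790), *MYB121* (AT3G30210), AT2G37870, AT3G62990 and AT5G15500. *SOM*, for a CCCH zinc finger protein that restrains light-dependent germination, lay at a distance of 0.0532. It was at 64.5 FPKM in *aph-1* and 64.7 FPKM in the wild type with ABA, against 0.0938 FPKM in *aph-1* and 0.623 FPKM in the wild type without ABA. The untreated levels of these 5 genes were between 0.143% and 0.174% of their ABA levels in *aph-1* and between 0.921% and 1.24% in the wild type, beside the 0.144% and 1.01% of *SWEET15* in *aph-1* and the wild type. The genes were chosen by these same 4 group values, so the closeness of the percentages follows from the choice. For *SWEET16* the 5 closest, within 0.41, were *SAUR26* (AT3G03850), *RBOHB* (AT1G09090), *IGMT1* (AT1G21100), *ATHB54* (AT1G27045) and *GAMT2* (AT5G56300). *RBOHB*, for an NADPH oxidase, was at 0.421 FPKM in *aph-1* and 0.271 FPKM in the wild type with ABA, against 4.72 FPKM in *aph-1* and 6.40 FPKM in the wild type without ABA.

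The 7 other *SWEET* genes were at low levels. *SWEET10* (AT5G50790), for a sucrose transporter known from flowering shoots, was the only one with at least 1 FPKM in any group. It was at 3.37 FPKM in *aph-1* and 3.42 FPKM in the wild type with ABA, against 4.63 FPKM in *aph-1* and 5.80 FPKM in the wild type without ABA, and it was not called. *SWEET10* lies next to *SWEET13* in the gene order of the RefSeq annotation, and the log2 ratios of ABA to untreated of these neighbours were -0.46 against 3.34 in *aph-1* and -0.76 against 2.80 in the wild type. *SWEET3*, *SWEET5*, *SWEET6*, *SWEET7*, *SWEET8* and *SWEET9* were at 0.488 FPKM or less throughout.

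Other sugar transporters and sucrose enzymes give the setting. Over all genes tested, 12.0% were called higher and 11.1% lower after ABA in *aph-1*, and 11.8% higher and 13.2% lower in the wild type. Of the 9 *SUC* genes for proton-coupled sucrose carriers, 4 were tested for ABA in each genotype. *SUC4*, for a vacuolar carrier, was called higher after ABA at a log2 ratio of 1.41 in *aph-1* and 1.37 in the wild type, and *SUC1* was called lower at -3.01 in *aph-1* and -3.03 in the wild type. *SUC2*, the phloem-loading partner of *SWEET11* and *SWEET12*, was at 79.9 FPKM in *aph-1* and 64.9 FPKM in the wild type with ABA, against 47.0 FPKM in *aph-1* and 33.5 FPKM in the wild type without ABA, which is under 2-fold. Of the 14 *STP* genes for proton-coupled hexose carriers, 8 were tested in the wild type, of which *STP13* was called higher and *STP1*, *STP5* and *STP14* lower. In *aph-1*, 7 were tested, of which *STP13* was called higher and *STP1* lower. *STP13* was at 68.2 FPKM in *aph-1* and 65.2 FPKM in the wild type with ABA, against 7.36 FPKM in *aph-1* and 8.71 FPKM in the wild type without ABA. Of 7 genes for vacuolar and ERD6-type sugar carriers, 6 were tested. *ESL1* and *TST2* were called higher, at log2 ratios of 3.37 and 2.18 in *aph-1* and 3.02 and 2.46 in the wild type, and *ERD6* was called lower, at -2.95 in *aph-1* and -2.98 in the wild type.

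Among the enzymes of sucrose metabolism, most of the few genes called were higher after ABA. The shares of all genes called higher were 12.0% in *aph-1* and 11.8% in the wild type. Of 10 invertase genes, 8 were tested in each genotype. *CWINV5* and the vacuolar invertase gene *BFRUCT3* were called higher after ABA, and *CWINV6*, whose product acts as a fructan exohydrolase, lower. *CWINV5* was at 24.1 FPKM in *aph-1* and 28.0 FPKM in the wild type with ABA, against 0.292 FPKM in *aph-1* and 0.442 FPKM in the wild type without ABA. Of 6 sucrose synthase genes, 5 were tested and *SUS1* and *SUS3* were called higher. *SUS3* was at 78.5 FPKM in *aph-1* and 91.0 FPKM in the wild type with ABA, against 0.936 FPKM in *aph-1* and 1.69 FPKM in the wild type without ABA. Of 4 sucrose phosphate synthase genes, 3 were tested and *SPSA1* and *SPSA2* were called higher, *SPSA2* at a log2 ratio of 3.80 in *aph-1* and 3.98 in the wild type. In these 6 lists no tested gene was called between the genotypes in either condition. Over all genes tested, 0.835% were called lower and 0.167% higher in *aph-1* without ABA, and 0.248% lower and 0.387% higher with ABA. At such shares, the absence of calls in lists this small says little about these genes. Among the genes of these lists that reached 1 FPKM in either untreated group, *SUS3* had the lowest *aph-1* over wild type ratio without ABA, at -0.85 on the log2 scale. The median log2 ratio of ABA to untreated in the wild type was 0.71 for the *SUC* genes tested, -0.73 for *STP*, 0.12 for the vacuolar and ERD6-type carriers, -0.47 for invertases, 0.37 for sucrose synthases and 1.66 for sucrose phosphate synthases, beside 1.14 for the 10 *SWEET* genes.

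**Figure D5:**
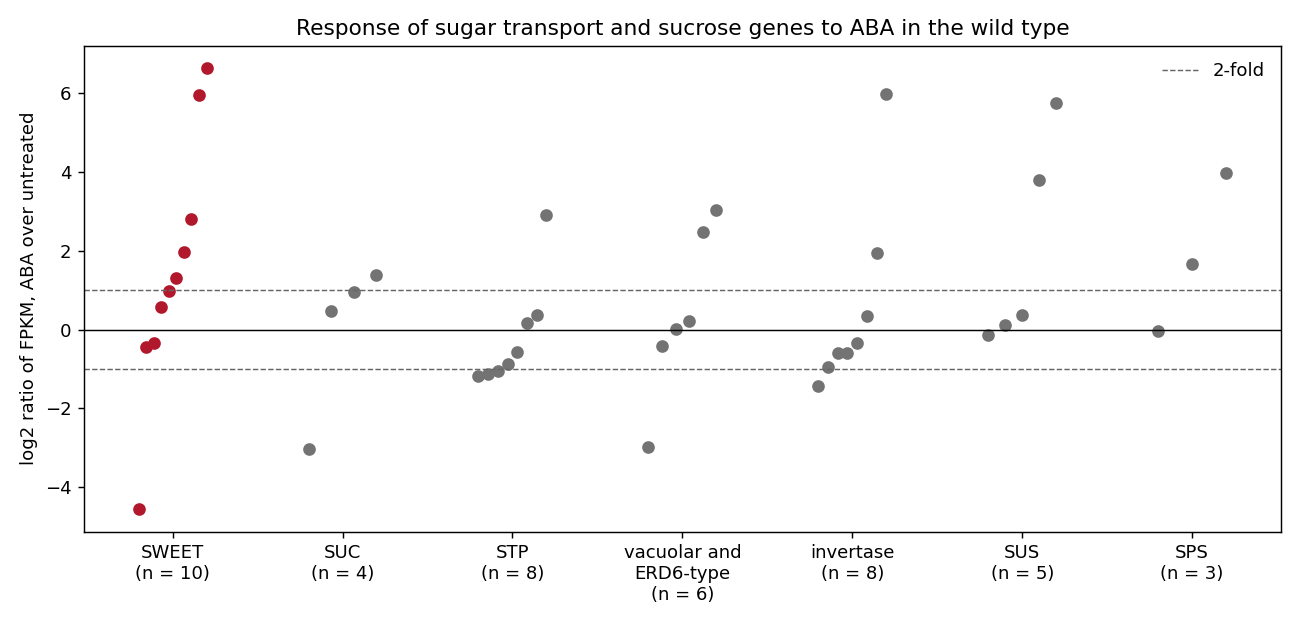
Log2 ratio of FPKM, ABA over untreated, in the wild type for the 10 *SWEET* genes and the tested genes of 6 other lists, with 1 point per gene and dashed lines at 2-fold. The *SWEET* genes span -4.56 to 6.63, a range that holds every point of the other lists, whose highest is *CWINV5* at 5.98 and whose lowest is *SUC1* at -3.03.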

How the data were processed

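Reads of directional libraries were trimmed (Trimmomatic), mapped to TAIR10 (HISAT) and counted per gene (htseq-count), per the authors' methods. The deposited values were taken as FPKM because the table's name points to Cuffdiff and the values have that form. The sources used here do not say how the authors combined 3 libraries into 1 FPKM value per group. No column of values per sample went unused, and the 8 columns with the authors' own ratios and calls were not used. Among 1327 genes under 0.15 FPKM in all groups and above 0 in both untreated groups, the commonest ratio of *aph-1* to wild type (0.973) held for 15 genes, so no relative depth was recovered.

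Log2 ratios were computed from the FPKM values without a pseudocount for 4 comparisons, with the calling rule given above. A run of the rule on made-up values without noise checked the code only. Alternatives were pseudocounts of 0.1 and 1 FPKM, no minimum or one of 5 FPKM, 1.5-fold and 3-fold thresholds, centring on the median, and 0.5% or 1% of the ABA level taken off untreated values. All 10 members are named. Of the 6 other lists, genes called at 2-fold are named. *SUC2* and *SWEET10* are named as well, chosen after their values were seen, as are the remaining *SWEET* genes. The direct neighbours described below and the uncalled sucrose synthase and sucrose phosphate synthase genes tested are also named. The members and lists were chosen with earlier results of these data known. The RefSeq gene table of TAIR10.1 held 32815 of the 33559 identifiers and all 10 members, and was used for names and gene order. No promoter or protein sequence was used here. Python 3.11.15, numpy 2.4.6 and pandas 2.3.3 were used.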

Additional observations from a re-analysis of the deposited data

How the results depend on the processing

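No paired analysis was possible because the table has 1 column per group, so neither a replicate block nor the omission of single replicates could be run. The promoter motif and protein comparisons planned were not run, for want of sequences here. Of 340 member ratios recomputed under the alternatives, 327 gave a value and 13 did not, 7 of these under the minimum of 5 FPKM and the others because untreated *aph-1* reached 0 for *SWEET15* (0.5% and 1% taken off) or *SWEET4* (1%). Of the 327, 321 stayed on their side of the threshold. These include 40 with no minimum, a setting that could not move a member, as all 10 were already tested. They also include 33 with a minimum of 5 FPKM, which can leave a ratio out but not change it. The ratios under these settings are therefore no support. The sign changed in 1, the uncalled *aph-1* over wild type ratio of *SWEET2* without ABA, which was -0.03 and became 0.02 when centred on the median. The count of members called lower in untreated *aph-1* was 1 in place of 2 with 1 FPKM added, where *SWEET4* was at -0.82, with a minimum of 5 FPKM, which leaves *SWEET4* untested, and with 0.5% of the ABA level taken off, where *SWEET15* had no ratio and *SWEET4* stayed called at -5.44. It was 0 with 1% taken off, where neither had a ratio. At 1.5-fold, *SWEET16* became the 1 member called higher in *aph-1* with ABA, where 0 were at 2-fold, and was also called lower without ABA, and *SWEET14* was called higher after ABA in the wild type. At 3-fold, *SWEET2* lost its call in both genotypes. The shares of all genes past 1.5-fold and 3-fold were not computed, so these calls cannot be set against them. The genotype ratio of *SWEET16* with ABA was among those without a value at the minimum of 5 FPKM. The call of *SWEET4* between the untreated genotypes thus depends on how low values are handled. That of *SWEET15* held with 1 FPKM added, at -2.29. The minimum of 5 FPKM could not move its call, as the untreated wild type was at 13.2 FPKM and the ratio is not changed. *SWEET15* had no ratio where untreated *aph-1*, at 1.90 FPKM before the subtraction, reached 0. Depth is unknown.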

Other observations

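The listed genes held 5 pairs of direct neighbours, described after their values were seen. *SWEET13* and *SWEET10* are given above, and of the other pairs *ERD6* and *ESL1*, and *CWINV1* and *CWINV5*, had ratios of opposite sign with ABA, while *SUC1* and *SUC5* did not. *ERD6* (AT1G08930) and *ESL1* (AT1G08920), next to each other in the RefSeq gene order, had log2 ratios of ABA to untreated of -2.95 and 3.37 in *aph-1* and -2.98 and 3.02 in the wild type. *ERD6* was at 7.82 FPKM in *aph-1* with ABA, against 60.4 FPKM in untreated *aph-1*. *ESL1* was at 133 FPKM in *aph-1* and 147 FPKM in the wild type with ABA, against 12.9 FPKM in *aph-1* and 18.1 FPKM in the wild type without ABA. *CWINV1* (AT3G13790), the main cell wall invertase gene of leaves, and its neighbour *CWINV5* (AT3G13784) had log2 ratios of -0.68 and 6.36 in *aph-1* and -0.60 and 5.98 in the wild type. *SUC1* (AT1G71880) and its neighbour *SUC5* (AT1G71890) had negative ratios, at -3.01 and -3.13 in *aph-1* and -3.03 and -3.98 in the wild type, and *SUC5* was under 1 FPKM in every group. *STP4* (AT3G19930) and *STP10* (AT3G19940) were at -0.88 and -0.60 in the wild type, with *STP10* listed at 0 in *aph-1* with ABA. In the wild type *STP10* was at 0.0112 FPKM with ABA and 0.0171 FPKM without, too low to be tested.

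Of the sucrose synthase genes tested, 2 of 5 were called higher after ABA, *SUS1* and *SUS3*, and of the sucrose phosphate synthase genes 2 of 3, *SPSA1* and *SPSA2*. Over all genes tested, 12.0% were called higher in *aph-1* and 11.8% in the wild type. *SUS4*, *SUS5*, *SUS6* and *SPSC* were within 2-fold in both genotypes. *SUS1* (AT5G20830) was at 166 FPKM in *aph-1* and 150 FPKM in the wild type with ABA, against 10.2 FPKM in *aph-1* and 10.8 FPKM in the wild type without ABA. *SPSA2* (AT5G11110) was at 102 FPKM in *aph-1* and 112 FPKM in the wild type with ABA, against 7.34 FPKM in *aph-1* and 7.08 FPKM in the wild type without ABA. Without ABA the log2 ratio, *aph-1* over wild type, was -0.09 for *SUS1* and 0.05 for *SPSA2*, -0.85 for *SUS3* and 0.09 for *SPSA1*, beside -2.79 for *SWEET15*.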
